A study of Mus musculus with 116 samples.

Results

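The Hox genes of the mouse were followed through the first cell divisions and in late 2-cell embryos released from a block of transcription. The members were taken by name: every symbol of the deposited tables made of Hox, a cluster letter from a to d and a number, whatever its level. This gave 39 of the 24028 symbols, 11 in the Hoxa cluster on chromosome 6, 10 in Hoxb on chromosome 11, 9 in Hoxc on chromosome 15 and 9 in Hoxd on chromosome 2. The family was selected on its FPKM difference between DRB-released and control late 2-cell embryos, which was known when it was proposed. All values of that comparison are therefore a description, and nothing is supported with them.

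Hox genes encode homeodomain transcription factors that give cells their position along the body axis and in the limbs. Within each cluster the genes lie in the order in which they are used along the body, from the head end (low paralogue numbers) to the tail end (high numbers), and genes with the same number in different clusters are paralogues. In early embryos and pluripotent cells the clusters are classic targets of Polycomb repression, and their ordered activation is known from gastrulation onwards, long after the cleavage stages studied here.

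The series mapped RNA polymerase II and RNA in mouse oocytes and embryos before implantation. The wild-type embryos had C57BL/6N mothers, 8 weeks old and superovulated with PMSG and hCG, and PWK fathers. MII oocytes, the mature eggs, were taken 13 h after hCG, zygotes at the late pronuclear stage PN5 at 30 h, early 2-cell embryos at 36 h and the inner cell mass (ICM) of blastocysts at 98 h. For the late 2-cell embryos, zygotes taken at 23 h spent 14 h either with 60 uM DRB, which inhibits the kinase that lets RNA polymerase II elongate, or with the vehicle, 0.1% DMSO (control). They were released as they entered the 2-cell stage and grew for a further 12 h. The sample labels call the DRB group mTBE, and its deposited column names DRB. Both late 2-cell groups thus share the culture and the release, which the PN5 and early 2-cell groups are not described as having. Each of the 5 total RNA libraries pooled about 100 oocytes or embryos, was depleted of ribosomal RNA and stood alone in its group. The 2 ICM libraries were made with Smart-seq2, which copies polyadenylated RNA.

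Levels are the authors' FPKM, fragments scaled by the length of the transcript and the size of the library, so that levels of different genes are on a scale per length. The number of reads behind a value is unknown. Between 9396 and 13022 symbols stood at 1 FPKM or more in a library. PN5, control and DRB-released embryos share 1 table; MII, early 2-cell and ICM values come from 3 tables normalized separately, and levels set side by side across them carry that limit. Of the 5 oocyte markers checked, 5 stood at 1 FPKM or more in MII, and of the 6 markers of the 2-cell stage 5 did in control and 6 in DRB-released embryos. All 5 oocyte markers did so in PN5, early 2-cell, control and DRB-released embryos too, so their count does not set MII apart. The libraries labelled ICM had all 6 ICM markers at 1 FPKM or more, but also all 6 trophectoderm markers, with summed levels of 1767 and 1500 FPKM against 417 and 322 for the ICM list. Control and DRB-released embryos also had all 6 ICM markers at 1 FPKM or more. With no replicate outside the ICM, no difference between stages or treatments below has a replicate check, a standard error or a p-value.

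The sequence in front of 6 members is shown first, since these genes carry the contrast described below: Hoxd13, Hoxa5, Hoxa2 and Hoxb8 were at least 2-fold higher in DRB-released embryos, whereas Hoxa7 and Hoxd1, the members with the highest control levels, were not. Each line gives the 250 bases upstream of the annotated start, 5′ to 3′ on the strand of the gene, from RefSeq on GRCm38.p6, with each CG dinucleotide in capitals. The windows lie at chr2:74667975-74668224 and chr2:74762730-74762979 on the plus strand, at chr11:96281655-96281904 on the plus strand, and at chr6:52204588-52204837, chr6:52164832-52165081 and chr6:52218574-52218823 on the minus strand. The authors' build was mm9, and no value was read by coordinate.
Hoxd13: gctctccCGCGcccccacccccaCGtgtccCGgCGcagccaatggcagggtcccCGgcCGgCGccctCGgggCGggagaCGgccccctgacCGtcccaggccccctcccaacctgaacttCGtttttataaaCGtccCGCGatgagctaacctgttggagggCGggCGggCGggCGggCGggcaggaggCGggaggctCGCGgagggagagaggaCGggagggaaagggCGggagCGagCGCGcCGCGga
Hoxa5: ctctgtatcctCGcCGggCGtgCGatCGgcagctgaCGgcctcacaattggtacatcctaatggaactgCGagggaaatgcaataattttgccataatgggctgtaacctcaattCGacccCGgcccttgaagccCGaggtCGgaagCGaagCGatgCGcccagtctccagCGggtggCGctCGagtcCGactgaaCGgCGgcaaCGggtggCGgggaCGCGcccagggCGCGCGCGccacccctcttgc
Hoxa2: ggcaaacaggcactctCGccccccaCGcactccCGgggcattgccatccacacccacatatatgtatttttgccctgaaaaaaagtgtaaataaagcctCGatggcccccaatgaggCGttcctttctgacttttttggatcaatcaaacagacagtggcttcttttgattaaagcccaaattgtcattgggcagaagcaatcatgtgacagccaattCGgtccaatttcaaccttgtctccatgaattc
Hoxb8: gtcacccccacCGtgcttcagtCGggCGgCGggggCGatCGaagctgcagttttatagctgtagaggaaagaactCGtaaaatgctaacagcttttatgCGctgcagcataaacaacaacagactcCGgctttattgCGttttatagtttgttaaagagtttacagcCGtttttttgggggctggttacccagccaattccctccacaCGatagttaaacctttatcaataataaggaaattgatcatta
Hoxa7: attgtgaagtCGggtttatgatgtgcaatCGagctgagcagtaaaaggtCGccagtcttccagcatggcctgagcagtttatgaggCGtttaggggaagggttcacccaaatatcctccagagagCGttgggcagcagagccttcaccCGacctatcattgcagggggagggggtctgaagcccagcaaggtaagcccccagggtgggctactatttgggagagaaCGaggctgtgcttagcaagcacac
Hoxd1: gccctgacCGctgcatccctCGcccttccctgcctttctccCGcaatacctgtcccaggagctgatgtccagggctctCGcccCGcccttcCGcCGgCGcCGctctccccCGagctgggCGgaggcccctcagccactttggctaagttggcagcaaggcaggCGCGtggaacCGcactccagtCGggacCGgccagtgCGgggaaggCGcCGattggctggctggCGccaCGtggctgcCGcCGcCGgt

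Hoxd13 has 31 CG dinucleotides in this window, Hoxa5 28, Hoxd1 24, Hoxb8 12, Hoxa7 7 and Hoxa2 6. The promoter table held 24 windows of 22 Hox genes, with a median of 12.5 CG dinucleotides (2 to 35) against 6 over all 32851 promoters in the table, and a median GC content of 58.6% against 52.4%. The windows with many and few CG dinucleotides occur on both sides: 31 and 6 among the genes counted as higher, 24 and 7 among the other pair. Of short motifs searched on both strands, the GC box GGGCGG occurs in 10 Hox windows (41.7%, against 32.7% of all promoters), Hoxd13, Hoxb8 and Hoxd1 among them. TATAAA, the core of the TATA box, occurs in 4 (16.7% against 12.4%), Hoxd13 and Hoxb8 among them. AGGTCA, the half-site bound by retinoic acid receptors among other nuclear receptors, occurs in 6 (25% against 14.0%), in none of the 6 windows shown. TATAAA and AGGTCA can share at most 1 base at their ends and GGGCGG overlaps neither. A match to these letters is a description of the sequence only.

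The Hox family as a whole was at low levels in oocytes and zygotes and stood highest in the DRB-released late 2-cell embryos. The summed level of the 39 genes was 11.0 FPKM in MII, 16.0 in PN5, 15.7 in early 2-cell, 56.6 in control and 131 in DRB-released embryos, and 5.20 and 6.21 in the ICM libraries. The DRB-released library thus held 2.31 times the control sum and 8.15 times the PN5 sum, and the control 3.53 times the PN5 sum; these comparisons share libraries. FPKM is scaled to the size of the library, so amounts of Hox RNA per embryo were not measured. In pooled embryos, more cells with Hox RNA, more Hox RNA per cell and a change in the rest of the RNA cannot be told apart. The number of members at 1 FPKM or more was 2 in MII, 4 in PN5, 2 in early 2-cell, 9 in control, 28 in DRB-released embryos, and 1 and 2 in the ICM libraries. Conversely, 19 members were listed at 0 in MII, 17 in PN5, 8 in early 2-cell and 6 in control, but 0 in DRB-released embryos, the only one of the 7 libraries in which every Hox gene was above 0; the ICM libraries had 19 and 22 at 0.

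**Figure D1:**
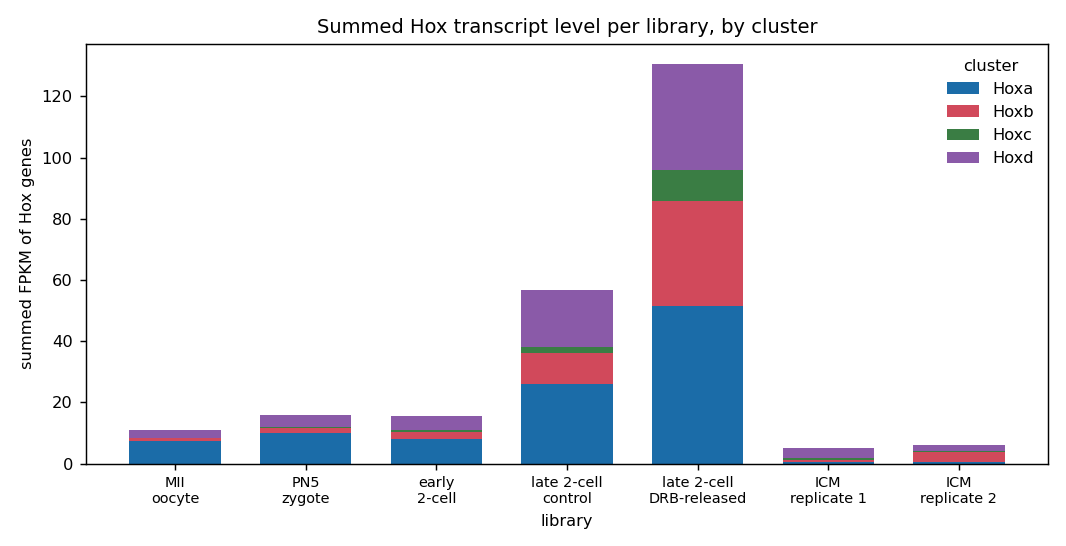
Summed FPKM of the Hox genes (y axis) in each of the 7 libraries (x axis), stacked by cluster, with 1 library per bar. The DRB-released bar reaches 131 FPKM, against 56.6 in control and 16.0 or less in the earlier stages and the ICM.

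A single gene, Hoxa7, made up the larger part of the Hox signal in MII oocytes and PN5 zygotes. It supplied 53.7% of the summed Hox FPKM in MII, 50.8% in PN5 and 41.6% in early 2-cell embryos, against 23.6% in control and 13.1% in DRB-released embryos and 3.86% and 0% in the ICM libraries. Without Hoxa7 the sums were 5.08 FPKM in MII, 7.88 in PN5, 9.15 in early 2-cell, 43.2 in control and 114 in DRB-released embryos. The order of the 3 libraries of the shared table was the same with and without it, and the ratio of the DRB-released to the control sum was 2.63 without it. The rank order of the 39 levels was most alike between MII and PN5 (Spearman's rho 0.72, across genes, as a description) and between control and DRB-released embryos (0.69). It was lower between PN5 and DRB-released embryos (0.55) and between PN5 and control (0.36). Genes at 0 in both libraries add ties to these values.

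**Figure D2:**
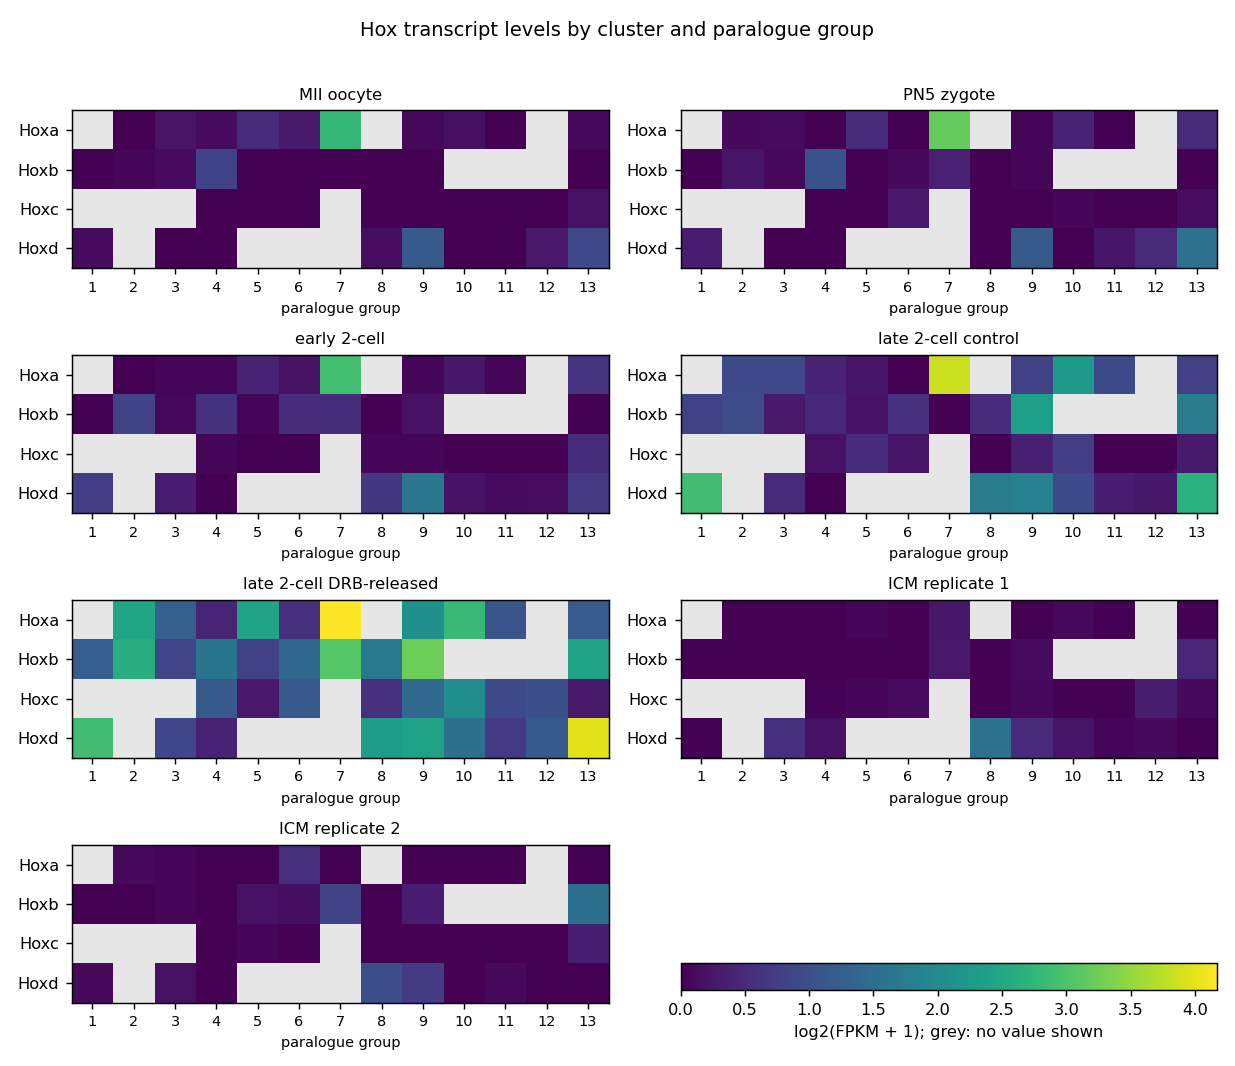
Level of each Hox gene as log2(FPKM + 1) (colour scale), with 1 panel per library, clusters as rows and paralogue groups as columns; grey marks positions with no value shown. Hoxa7 is the brightest cell in MII, PN5 and early 2-cell embryos, and in the DRB-released panel cells are lit in all 4 clusters and from group 1 to group 13.

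Control and DRB-released late 2-cell embryos were compared to see how the genes stood after a temporary block of elongation. Differences are given as DRB-released minus control on the log2(FPKM + 1) scale, and a gene was counted as higher or lower when it differed by at least 1 (about 2-fold) and reached 1 FPKM in at least 1 of both libraries. Of the 39 Hox genes, 28 met the level filter, 12 were at least 2-fold higher and 0 at least 2-fold lower. Over all genes of the table, 5.57% of 13726 were at least 2-fold higher and 9.99% at least 2-fold lower. Here and below, at least 2-fold means this rule unless a plain ratio is named. The added 1 FPKM keeps out low members with larger plain FPKM ratios, such as Hoxc4 (8.84), Hoxc6 (6.83) and Hoxd12 (5.98). By plain ratio 18 of the 28 were at least 2-fold higher, with no share over all genes to set beside it. All 28 passed the filter in the DRB-released library, and 19 of them in that library alone, so that their higher side is fixed by the filter. With no filter, 37 of the 39 were higher by any amount, against 50.4% of the 17953 genes above 0 in at least 1 of both libraries; the exceptions were Hoxc5 and Hoxd1. The median difference over all 39 was 0.61, against 0 over all genes of the table.

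Many members stood below 1 FPKM in control and above it in DRB-released embryos. Of the 30 Hox genes below 1 FPKM in control, 19 were at 1 FPKM or more in DRB-released embryos, against 10.9% of the 11556 genes of the table that started below it. In the other direction it was 0 of 9 Hox genes, against 5.64% of all genes. Of the members listed at 0 in control 6 of 6 were above 0 in DRB-released embryos, as were 19.9% of the 7596 genes of the table listed at 0. Among members above 0 and below 0.5 FPKM in control, 13 of 14 were higher in DRB-released embryos, and 62.0% of the 2503 genes of the table in that range were. From 0.5 to 1 FPKM it was 10 of 10 Hox genes and 57.8% of all genes. Between 1 and 5 FPKM it was 6 of 6 Hox genes and 48.7% of all genes, and between 5 and 20 FPKM 2 of 3 Hox genes and 33.4%. Of the members that met the filter, those closest to the limit of 1 on the log2(FPKM + 1) scale were Hoxc12 (1.01) and Hoxc9 (1.06) just inside, and Hoxc4 (0.99) and Hoxc6 (0.92) just outside.

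**Figure D3:**
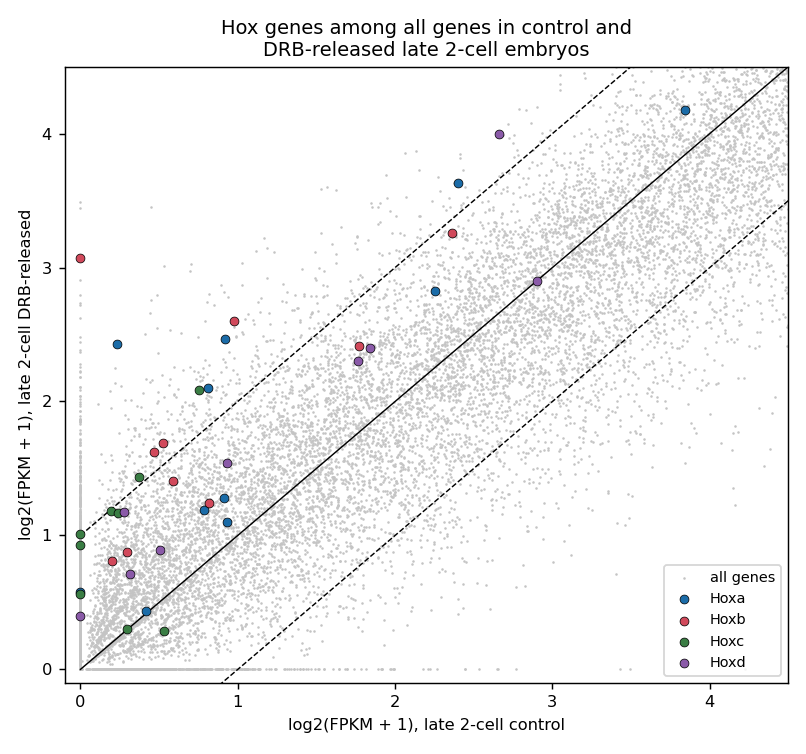
Level of each gene in control (x axis) and DRB-released (y axis) late 2-cell embryos as log2(FPKM + 1), with Hox genes coloured by cluster and all genes in grey; the axes end at 4.5 and the dashed lines mark a difference of 1. All but Hoxc5 and Hoxd1 lie above the diagonal, and 12 reach or pass the upper dashed line.

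The Hoxa cluster had the highest sum in every total RNA library: 7.28 FPKM in MII, 9.89 in PN5, 7.97 in early 2-cell, 26.1 in control and 51.4 in DRB-released embryos, and 0.630 and 0.683 in the ICM libraries. Without Hoxa7 its sums in the 5 total RNA libraries were 1.38, 1.75, 1.45, 12.7 and 34.4 FPKM, each below that of the Hoxd cluster given further on. Of the 9 Hoxa genes that met the filter, 4 were at least 2-fold higher in DRB-released embryos. Hoxa2, a head-end gene which sets the identity of the second pharyngeal arch, was at 0 FPKM in MII, 0.0709 in PN5, 0 in early 2-cell, 0.888 in control and 4.52 in DRB-released embryos, and 0 and 0.0786 in the ICM libraries. Its difference between DRB-released and control embryos was 1.55, and both late 2-cell libraries stood above the other 5. Hoxa3, needed for the thymus and parathyroid, was at 0.168 FPKM in MII, 0.0916 in PN5, 0.0390 in early 2-cell, 0.885 in control and 1.43 in DRB-released embryos, and 0 and 0.0528 in the ICM libraries, a difference of 0.37. Hoxa2 was at least 2-fold higher and Hoxa3 was not.

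In the middle of the cluster, 1 gene was near 0 in control and another was the most abundant Hox gene in all 5 total RNA libraries. Hoxa5, which acts in lung and neck vertebra development, was at 0.432 FPKM in MII, 0.430 in PN5, 0.327 in early 2-cell, 0.175 in control and 4.40 in DRB-released embryos, and 0.0349 and 0 in the ICM libraries. Its control level was the lowest of the 5 total RNA libraries and its DRB-released level the highest, a difference of 2.20, exceeded among the members by Hoxb7 alone. Hoxa7, a gene of trunk patterning, was at 5.90 FPKM in MII, 8.14 in PN5, 6.52 in early 2-cell, 13.4 in control and 17.1 in DRB-released embryos, and 0.201 and 0 in the ICM libraries. The DRB-released and control levels of Hoxa7 differed by 0.33, within the limit, and it was near or at 0 in the ICM. Hoxa4, Hoxa5 and Hoxa6 each overlap Hoxa3 in the RefSeq annotation, and how reads in shared sequence were assigned is not given in the sources used here, so their split is uncertain.

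Towards the tail end, Hoxa9, a regulator of blood stem cells that is often raised in leukaemia, was at 0.0624 FPKM in MII, 0.0445 in PN5, 0.0369 in early 2-cell, 0.754 in control and 3.29 in DRB-released embryos, and 0 and 0 in the ICM libraries. It differed by 1.29 and was the only tail-end Hoxa gene counted as higher. Hoxa10, which the uterus needs for implantation, was at 0.132 FPKM in MII, 0.324 in PN5, 0.201 in early 2-cell, 3.76 in control and 6.07 in DRB-released embryos, and 0.0598 and 0 in the ICM libraries, a difference of 0.57. Hoxa11, a gene of the forearm, kidney and uterus, was at 0 FPKM in MII, 0 in PN5, 0.0555 in early 2-cell, 0.908 in control and 1.14 in DRB-released embryos, and 0 and 0 in the ICM libraries; its late 2-cell levels differed by 0.17. Hoxa13, needed for digits and the urogenital tract, was at 0.0630 FPKM in MII, 0.420 in PN5, 0.544 in early 2-cell, 0.727 in control and 1.29 in DRB-released embryos, and 0 and 0 in the ICM libraries, a difference of 0.40. All 4 were at their highest in DRB-released embryos, and Hoxa10 alone already stood above 1 FPKM in control.

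The Hoxb cluster summed to 0.933 FPKM in MII, 1.73 in PN5, 2.51 in early 2-cell, 9.98 in control and 34.3 in DRB-released embryos, and 0.682 and 3.24 in the ICM libraries. The DRB-released sum was 3.44 times the control sum, and 4 of the 8 genes that met the filter were counted as higher. By plain FPKM ratio Hoxb6 (3.27) and Hoxb9 (2.08) were also above 2. Hoxb1, which specifies the hindbrain segment of the facial nerve, was at 0 FPKM in MII, 0 in PN5, 0 in early 2-cell, 0.759 in control and 1.37 in DRB-released embryos, and 0 and 0 in the ICM libraries, a difference of 0.43. Hoxb2, its neighbour and target in the hindbrain, was at 0.0530 FPKM in MII, 0.182 in PN5, 0.818 in early 2-cell, 0.964 in control and 5.06 in DRB-released embryos, and 0 and 0 in the ICM libraries, a difference of 1.63. Control and early 2-cell levels of Hoxb2 were close to each other, and the DRB-released level stood apart from the other 6 libraries.

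Among the middle Hoxb genes, Hoxb4, known for expanding blood stem cells, was at 0.789 FPKM in MII, 1.07 in PN5, 0.525 in early 2-cell, 0.384 in control and 2.08 in DRB-released embryos, and 0 and 0 in the ICM libraries. It was among the few members with a level near 1 FPKM in MII and PN5; the control stood below PN5, and the DRB-released level was 1.15 above control. Hoxb4 overlaps Hoxb3 in the annotation. Hoxb6, a trunk gene, was at 0 FPKM in MII, 0.0773 in PN5, 0.447 in early 2-cell, 0.505 in control and 1.65 in DRB-released embryos, and 0 and 0.110 in the ICM libraries, a difference of 0.82. Hoxb7, the next trunk gene, was at 0 FPKM in MII, 0.300 in PN5, 0.468 in early 2-cell, 0 in control and 7.40 in DRB-released embryos, and 0.219 and 0.811 in the ICM libraries. Its difference of 3.07 exceeded that of every other member. No fold is given because it was listed at 0 in control. In these tables a 0 can be a failed estimate: of the 3585 genes at 10 FPKM or more in both MII and early 2-cell embryos, 40 were listed at 0 in control, 44 in DRB-released and 40 in PN5 embryos. Over all genes, 22 were at 0 in control and at 5 FPKM or more in DRB-released embryos, Hoxb7 among them, and 18 the reverse. Hoxb8, which acts in trunk patterning and in blood-derived cells of the brain, was at 0 FPKM in MII, 0 in PN5, 0.00901 in early 2-cell, 0.441 in control and 2.22 in DRB-released embryos, and 0 and 0 in the ICM libraries, a difference of 1.16.

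At the tail end, Hoxb9, a gene of the thoracic skeleton, was at 0 FPKM in MII, 0.0424 in PN5, 0.147 in early 2-cell, 4.13 in control and 8.59 in DRB-released embryos, and 0.0938 and 0.247 in the ICM libraries. The late 2-cell levels differed by 0.90, just short of the limit, and Hoxb9 had the highest level of the cluster in both late 2-cell libraries. Hoxb13, the end gene of the cluster and known from tail and prostate development, was at 0 FPKM in MII, 0 in PN5, 0 in early 2-cell, 2.42 in control and 4.32 in DRB-released embryos, and 0.369 and 1.89 in the ICM libraries. It was listed at 0 in all 3 earliest stages, and the late 2-cell levels differed by 0.64. In the ICM it was the member with the largest gap between replicates in FPKM.

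The Hoxc cluster was the lowest in all 5 total RNA libraries, with sums of 0.149 FPKM in MII, 0.366 in PN5, 0.595 in early 2-cell, 1.98 in control and 10.3 in DRB-released embryos, and 0.593 and 0.326 in the ICM libraries. Its ratio of DRB-released to control sums, 5.19, was the highest of the 4 clusters. None of its 9 genes reached 1 FPKM in control, and 5 did in DRB-released embryos. Hoxc4, at the head end of the cluster, was at 0 FPKM in MII, 0 in PN5, 0.0361 in early 2-cell, 0.144 in control and 1.27 in DRB-released embryos, and 0.0329 and 0 in the ICM libraries, a difference of 0.99. Hoxc6, a trunk gene, was at 0.00760 FPKM in MII, 0.214 in PN5, 0 in early 2-cell, 0.182 in control and 1.24 in DRB-released embryos, and 0.0842 and 0 in the ICM libraries, a difference of 0.92. Hoxc9, which sets the fate of thoracic motor neurons, was at 0 FPKM in MII, 0 in PN5, 0.0578 in early 2-cell, 0.293 in control and 1.70 in DRB-released embryos, and 0.0772 and 0 in the ICM libraries, a difference of 1.06.

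Hoxc10, which acts in lumbar motor neurons, was at 0 FPKM in MII, 0.0561 in PN5, 0 in early 2-cell, 0.689 in control and 3.24 in DRB-released embryos, and 0 and 0 in the ICM libraries. Its difference was 1.33, and it had the highest Hoxc level in both late 2-cell libraries. Hoxc12 was at 0 FPKM in MII, 0 in PN5, 0 in early 2-cell, 0 in control and 1.02 in DRB-released embryos, and 0.274 and 0 in the ICM libraries; the difference was 1.01 from a control listed at 0, so that no fold is given. These 2 genes and Hoxc9 are the 3 of 5 tested Hoxc genes counted as higher.

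The Hoxd cluster summed to 2.61 FPKM in MII, 4.03 in PN5, 4.59 in early 2-cell, 18.5 in control and 34.6 in DRB-released embryos, and 3.29 and 1.95 in the ICM libraries. Its ratio of DRB-released to control sums was 1.86, the lowest of the 4 clusters, and 1 of the 6 genes that met the filter was counted as higher. By plain FPKM ratio Hoxd10 (2.10) and Hoxd12 (5.98) were also above 2. Hoxd1, which acts in pain-sensing neurons, was at 0.0925 FPKM in MII, 0.254 in PN5, 0.684 in early 2-cell, 6.46 in control and 6.45 in DRB-released embryos, and 0 and 0.0744 in the ICM libraries. Control and DRB-released levels of Hoxd1 were nearly equal, while the control stood 2.57 above PN5 on the log2(FPKM + 1) scale. Hoxd8, a middle gene of the cluster, was at 0.0994 FPKM in MII, 0 in PN5, 0.599 in early 2-cell, 2.40 in control and 3.92 in DRB-released embryos, and 1.94 and 1.01 in the ICM libraries, with a late 2-cell difference of 0.53. Hoxd8 was the one member at 1 FPKM or more in both ICM libraries.

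Hoxd9, a gene of the limb and lumbar spine, was at 1.28 FPKM in MII, 1.27 in PN5, 2.10 in early 2-cell, 2.58 in control and 4.28 in DRB-released embryos, and 0.432 and 0.651 in the ICM libraries, a late 2-cell difference of 0.56. It lay between 1.27 and 4.28 FPKM in all 5 total RNA libraries and was, after Hoxa7, the second most abundant member in MII and early 2-cell embryos. Hoxd10, which acts in hindlimb motor neurons, was at 0 FPKM in MII, 0 in PN5, 0.147 in early 2-cell, 0.906 in control and 1.91 in DRB-released embryos, and 0.178 and 0 in the ICM libraries, a difference of 0.61. Hoxd12, a digit gene, was at 0.221 FPKM in MII, 0.404 in PN5, 0.102 in early 2-cell, 0.210 in control and 1.26 in DRB-released embryos, and 0.0753 and 0 in the ICM libraries, a difference of 0.90. Hoxd13, at the end of the cluster and known for its mutations in fused and extra digits, was at 0.903 FPKM in MII, 1.93 in PN5, 0.619 in early 2-cell, 5.32 in control and 14.9 in DRB-released embryos, and 0 and 0 in the ICM libraries. The difference of Hoxd13 was 1.33. Its DRB-released level was 2.81 times its control level and, among Hox genes, second to that of Hoxa7.

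**Figure D4:**
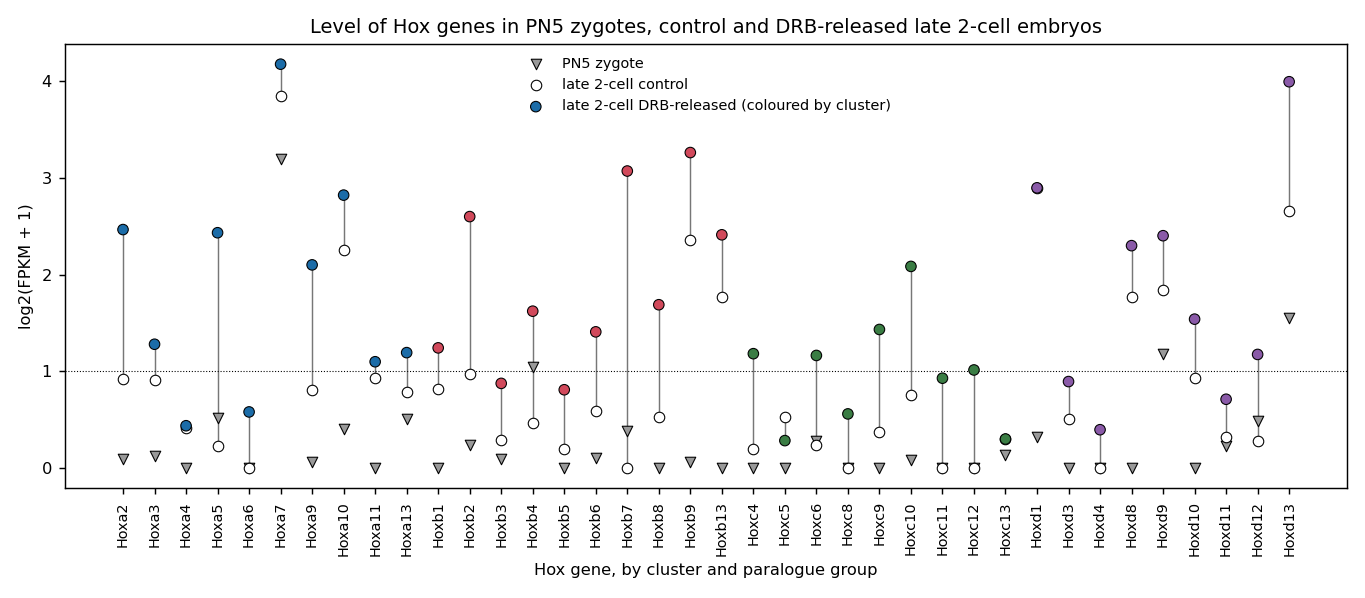
Level of 38 of the 39 Hox genes (x axis, by cluster and paralogue group) as log2(FPKM + 1) in PN5 zygotes (triangles), control (open circles) and DRB-released (filled circles, coloured by cluster) late 2-cell embryos; the dotted line marks 1 FPKM. Hoxb7 and Hoxa5 show the longest lines from control to DRB-released, and Hoxd1 shows none.

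The other 11 members stayed below 1 FPKM in all 7 libraries. They were Hoxa4, Hoxa6, Hoxb3, Hoxb5, Hoxc5, Hoxc8, Hoxc11, Hoxc13, Hoxd3, Hoxd4 and Hoxd11: 2 of Hoxa, 2 of Hoxb, 4 of Hoxc and 3 of Hoxd. Their levels ran from 0 to 0.447 FPKM in control (median 0.225) and from 0.218 to 0.904 in DRB-released embryos (median 0.495). Their highest values in the other libraries were 0.229 FPKM in MII, 0.173 in PN5, 0.456 in early 2-cell, and 0.477 and 0.497 in the ICM. Hoxc5, at 0.447 FPKM in control and 0.218 in DRB-released embryos, was the member with the largest difference downwards (-0.25), and Hoxc13, at 0.229 and 0.232, was nearly equal.

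Sums by position along the body axis are given for 3 classes, and for the central class, which holds Hoxa7, also without that gene. The anterior genes (paralogue groups 1 to 3, 8 genes) summed to 14.9 FPKM in control and 31.9 in DRB-released embryos, a ratio of 2.14. The central genes (groups 4 to 8, 15 genes) summed to 18.5 and 43.9, a ratio of 2.37, and the posterior genes (groups 9 to 13, 16 genes) to 23.2 and 54.8, a ratio of 2.36. Without Hoxa7 the other 14 central genes summed to 5.16 FPKM in control and 26.8 in DRB-released embryos, a ratio of 5.19. Hoxb7 gave 7.40 of these 26.8 FPKM and was listed at 0 in control, a 0 that can be a failed estimate. Counted as higher were 3 of 6 anterior, 4 of 9 central and 5 of 13 posterior genes that met the filter. Single paralogue groups were more spread: group 7 had a ratio of 1.83 and group 13 one of 2.39, while group 12 (Hoxc12 and Hoxd12) had 10.8 on a control sum of 0.210 FPKM, group 2 (Hoxa2 and Hoxb2) had 5.17 and group 5 had 6.97, with Hoxa5 giving 4.40 of its 5.37 FPKM in DRB-released embryos. In group 7, Hoxa7 was the highest member of the family in control while Hoxb7 was listed at 0. Over groups that hold 2 to 4 genes each, sums ran from 0.210 FPKM (group 12) to 13.4 (group 7) in control and from 2.28 (group 12) to 24.5 (group 7) in DRB-released embryos.

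Compared with PN5 zygotes, the control late 2-cell embryos already had higher Hox levels in FPKM. Of 10 members that met the filter, 7 were at least 2-fold higher in control, and 0 were at least 2-fold lower; over all genes 30.5% were higher and 17% lower by this rule. Of the 7, 6 passed the filter in the control library alone, so that their higher side is fixed by the filter. With no filter, 29 of the 39 were higher in control by any amount, 5 lower and 5 equal. The share of all genes higher than in PN5 by any amount was not counted, so this count is not read as particular to Hox genes. Among the 7 were Hoxa10, Hoxb9, Hoxb13, Hoxd1, Hoxd8 and Hoxd13, of which Hoxd1 (2.57) and Hoxb9 (2.30) had the largest differences in log2(FPKM + 1). Hoxa7, Hoxb4 and Hoxd9, the other 3, were above 1 FPKM in PN5 already, as was Hoxd13. In DRB-released embryos 28 members met the filter against PN5, of which 23 passed the 2-fold limit upwards and 0 downwards, against 29.4% and 17.7% of all genes. Of these 28, 24 passed the filter in the DRB-released library alone, 21 of the 23 among them. All 39 were higher than in PN5 by some amount, again with no share over all genes to set beside it. The PN5, control and DRB-released libraries are shared between these comparisons, and stage, culture and vehicle change together between PN5 and both late 2-cell groups and cannot be told apart.

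Set side by side, the values of members at least 2-fold higher in DRB-released than in control embryos started from different control levels. Hoxd13 was already at least 2-fold above PN5 in control (1.11 in log2(FPKM + 1)) and stood a further 1.33 higher in DRB-released embryos. Hoxa5, Hoxb4 and Hoxb7 were lower in control than in PN5 (-0.28, -0.58 and -0.38). A further 7, Hoxa2, Hoxa9, Hoxb2, Hoxb8, Hoxc9, Hoxc10 and Hoxc12, differed between control and PN5 by 0 (Hoxc12) to 0.82 (Hoxa2). Hoxd1, not among the 12, was 2.57 above PN5 in control and 2.57 above it in DRB-released embryos.

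In the ICM the family was lower by summed FPKM than in each of the 5 total RNA libraries, in a table normalized separately and from polyadenylated RNA. The 2 replicates summed to 5.20 and 6.21 FPKM, a mean of 5.70. Above 0 in both were 10 members, in 1 replicate only 17 and in neither 12, and 37 stayed below 1 FPKM in both. The 2 members above it were Hoxd8 (1.94 and 1.01 FPKM) and Hoxb13 (0.369 and 1.89). Hoxd13 and Hoxa9, among those counted as higher in DRB-released embryos, were listed at 0 in both replicates. The rank order of levels was only loosely shared between the replicates (Spearman's rho 0.35 across genes). The trophectoderm markers in these libraries, at the levels given above, are to be read beside these values; their part in the Hox levels was not tested.

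Across the 7 libraries 35 of the 39 members stood highest in DRB-released embryos. The exceptions were Hoxa6, Hoxc5, Hoxc13 and Hoxd1, which were highest in the ICM, control, early 2-cell and control libraries, at 0.497, 0.447, 0.456 and 6.46 FPKM. The share of all genes that stood highest in DRB-released embryos was not counted. That library also had the most symbols at 1 FPKM or more (13022). The levels come from tables normalized separately, and the family was selected on its difference between DRB-released and control embryos. Hox genes that overlap another Hox gene in the annotation number 10, and 2 of the 12 genes counted as higher, Hoxa5 and Hoxb4, are among them. Without the 10, 27 of 29 members were higher by any amount and 10 of the 12 counts remained. In all, 20 members overlap some annotated gene, antisense RNAs included, and the sources used here do not say whether reads were counted by strand.

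Genes that work with or on the Hox genes were taken from 7 lists; those counted as higher or lower were named after their values were seen. Hox proteins bind DNA with cofactors of the TALE class, and of 9 listed 6 met the filter, 2 were at least 2-fold higher in DRB-released embryos (Meis1 and Meis2) and 0 lower, beside 5.57% and 9.99% of all genes. The median difference was 0 over the 9 and 0.64 over the 6 that met the filter, against -0.05 over all genes that met it. Meis2 was at 54.7 FPKM in MII, 116 in PN5, 25.0 in early 2-cell, 34.8 in control, 91.0 in DRB-released embryos and below 0.1 in both ICM libraries. Pbx2, a partner of many Hox proteins, was at 19.3 FPKM in control and 38.2 in DRB-released embryos, Pbx3 at 7.29 and 9.47, and Pknox1 at 2.38 and 1.63. Among regulators, the Polycomb list of 28 genes had 27 that met the filter, 1 higher (Cbx8) and 1 lower (Pcgf5), and a median of 0.05. Among its members, Suz12 was at 360 FPKM in control and 450 in DRB-released embryos, Bmi1 at 571 and 697, Phf1 at 345 and 367, and Rbbp7 at 131 and 134. The opposing Trithorax group and the H3K27 demethylases had 16 of 18 listed symbols in the tables, 0 higher, 1 lower (Mllt1) and a median of -0.17. The absent symbols, Mll1 and Mll2, are older names of Kmt2 genes, and Kmt2a and Kmt2b are among the 16. Kdm6a, a demethylase, was at 62.6 and 85.5 FPKM and Wdr5 at 160 and 131.

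Retinoic acid is the classic inducer of Hox genes, and its pathway list of 17 genes had 13 that met the filter, 1 higher, 0 lower and a median of 0.19. Beside this list and those that follow, 5.57% of all genes were higher and 9.99% lower. The higher gene, Cyp26a1, which degrades retinoic acid, was at 0.798 FPKM in control and 5.58 in DRB-released embryos. The synthesis enzymes Rdh10 (100.2 and 101 FPKM) and Aldh1a2 (3.62 and 5.45) and the binding protein Crabp2 (25.3 and 35.6) lay within 2-fold. Of 10 Cdx, ParaHox and other upstream homeobox or hindbrain regulators, 6 met the filter, 1 was higher (Pdx1, 1.77 and 5.35 FPKM) and 0 lower. The median difference was 0.27 over the 10 and 0.48 over the 6 that met the filter. Cdx2, an activator of trunk Hox genes, was at 2.41 and 3.76 FPKM. Noncoding RNAs inside the clusters were low: Hotair, of the Hoxc cluster, was at 0.490 FPKM in control and 1.21 in DRB-released embryos, and Hottip, next to Hoxa13, at 0.533 and 1.16. Of 10 in the tables these 2 met the filter, and 0 were counted as higher or lower. The median difference was 0 over the 10 and 0.53 over the 2. Haglr, of the Hoxd cluster, was at 0.582 and 0.115 FPKM. The 6 microRNA symbols of the clusters were listed at 0 in all 7 libraries. None of these is described as a small RNA library, so absence cannot be read from these values.

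The genes beside the clusters share their chromosome regions without being Hox genes. Of 26 in the tables, all 26 met the filter, with a median difference of 0.07. Of these, 0 were at least 2-fold higher and 4 lower (Calcoco2, Atp5g1, Nfe2 and Mtx2), beside 5.57% and 9.99% of all genes. Evx1 and Evx2 (Evx2 chosen after its values were seen), homeobox genes at the tail ends of the Hoxa and Hoxd clusters, were at 1.08 and 1.08 FPKM and at 0.668 and 1.15 FPKM. Copz1, of the Hoxc flank, was at 72.5 FPKM in control and 74.7 in DRB-released embryos.

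**Figure D5:**
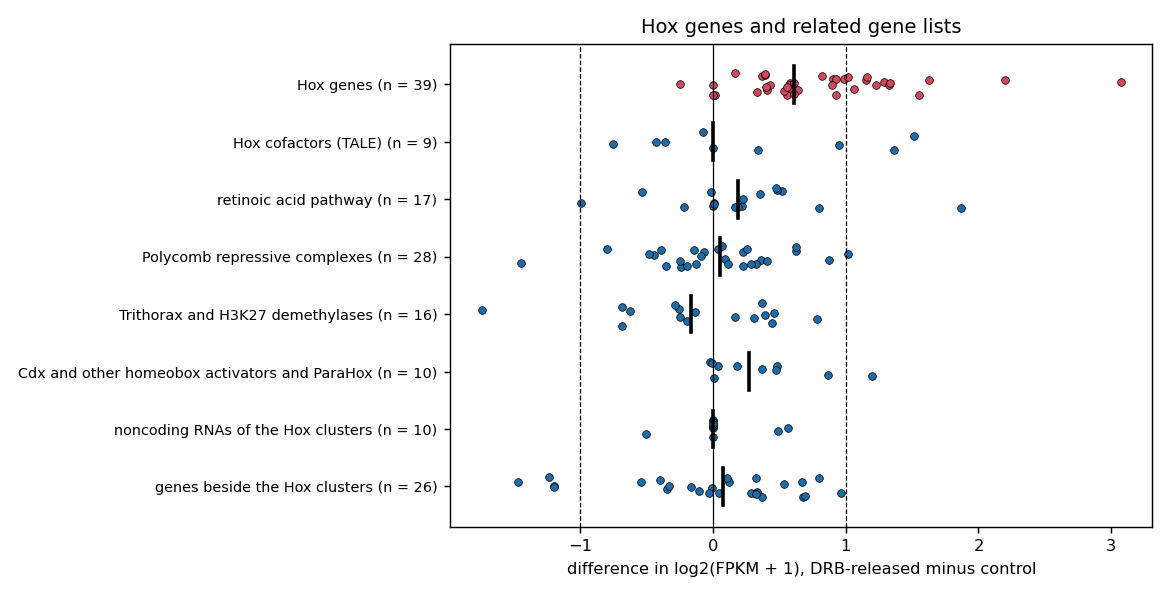
Difference in log2(FPKM + 1), DRB-released minus control (x axis), for each gene (points) of the Hox family and of 7 related lists (y axis, number of genes in brackets); thick bars are medians and dashed lines mark a difference of 1 in either direction. The Hox median is 0.61, and the medians of the Polycomb list and of the genes beside the clusters are 0.05 and 0.07. Those of the Cdx and ParaHox list and the retinoic acid list are 0.27 and 0.19. The TALE and noncoding RNA medians are 0, and the Trithorax median is -0.17.

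Markers of other cell types that could carry Hox RNA were checked in both late 2-cell libraries, and those named by their direction were chosen after their values were seen. Over all genes 5.57% were at least 2-fold higher and 9.99% lower. The 9 mesenchyme and fibroblast markers summed to 7.56 FPKM in control and 10.1 in DRB-released embryos, with 3 of 9 at 1 FPKM or more in each, and Col1a2, Col3a1 and Lum listed at 0 in both. Of the 4 that met the filter, Twist1 was at least 2-fold higher, at 0 FPKM in control and 2.39 in DRB-released embryos, and Dcn at least 2-fold lower, at 1.04 and 0; Col1a1 was at 3.49 and 2.85 FPKM and Thy1 at 2.24 and 3.10. The 8 cumulus and granulosa markers summed to 22.1 and 16.9 FPKM, with Ptx3 at 0 in both, Foxl2 higher at 1.04 and 7.20 FPKM and Amhr2 lower at 16.7 and 2.12. Blood markers summed to 19.6 and 6.16 FPKM with Ptprc and Hbb-b1 at 0 in both, and the lower ones were Gata1, at 15.6 and 3.39 FPKM, and Lyz2, at 2.99 and 0. Sperm markers summed to 2.73 and 6.85 FPKM with Prm1 at 0 in both and Tnp1 higher, at 1.92 and 4.98. Of markers of embryonic lineages, Gata3 (1 of 5 tested trophectoderm markers) was higher at 2.60 and 10.2 FPKM, as were Pdgfra at 2.59 and 6.41 and Foxa2 at 1.37 and 4.06 (2 of 5 tested primitive endoderm markers). The 7 neural markers summed to 112 and 151 FPKM, of which Tubb3, at 250 FPKM in PN5, made up 74.8 and 86.5, and 3 of the 6 that met the filter (Sox1, Pax6 and Olig2) were at least 2-fold higher in DRB-released embryos. Of the other neural markers, Neurog2 was at 14.9 FPKM in control and 15.8 in DRB-released embryos, Map2 at 5.87 and 7.61, and Neurod1 at 0.442 and 0.278. Markers of the stage also differed: the 6 markers of the 2-cell embryo summed to 208 FPKM in control and 128 in DRB-released embryos. The part of these shifts in the Hox levels was not tested.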

How the data were processed

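RNA levels were read from 4 deposited tables that hold 7 libraries: 1 each of MII oocytes, PN5, early 2-cell, control and DRB-released late 2-cell embryos, and 2 of the ICM. Of the 116 samples in the series, 109 were not analysed here. The value column of the MII table shares its name with a chromatin sample and was taken as the MII RNA library because the table is listed with it. The authors deposited the levels as FPKM. Tools listed in the submitters' processing notes are TopHat2 2.1.1, Cufflinks 2.1.1 and CASAVA 1.8, with mm9 as build; the handling of strand and of reads with several positions is not given in the sources used here, and depth is unknown. Rows repeating a symbol (497 in the 3-library table, 495 in each of the MII and early 2-cell tables, no Hox gene) were summed; 0 value columns lacked a sample.

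Differences were calculated with pandas 2.3.3 and numpy 2.4.6 in Python 3.11.15 as log2(FPKM + 1), a pseudocount of 1 FPKM that understates the fold of low genes. The level filter asked for 1 FPKM in either library compared, and the size rule for a difference of at least 1. With 1 library per total RNA group no test was possible; Spearman's rho (scipy 1.17.1) is a description. The counting was tested on simulated data with changes set only in genes at 20 FPKM or more in control. No Hox gene reached that level, so the test does not cover their range. Hox genes that reached 1 FPKM in any library were given in full, except 1 that is not reported here and enters only counts and sums, and the others by range; from each of the 7 other lists up to 4 members with the highest mean level were named, and any other gene was chosen after its values were seen. The members and lists were chosen with earlier results of these data known. Upstream sequences came from the RefSeq promoter table of GRCm38.p6. Other pseudocounts, filters and scalings were tried; a plain ratio and leaving out overlapping Hox genes were added after seeing the data.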

Additional observations from a re-analysis of the deposited data

How the results depend on the processing

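The median difference between DRB-released and control embryos stayed above 0 in the 4 alternatives run for it: a pseudocount of 0.1 FPKM, a filter of 1 FPKM, the median ratio set to 0, and the row with the highest mean kept for a repeated symbol. Only the median ratio set to 0 could have changed this, and it gave 0.67. A pseudocount leaves the sign of each difference as it was, and no Hox symbol is repeated. Of the 28 genes kept by the filter, 19 passed in the DRB-released library alone, which fixes a median above 0. The count of genes at least 2-fold lower was 0 with a pseudocount of 0.1 FPKM, a filter of 5 FPKM, no filter and a pseudocount of 0.1 FPKM, and the median ratio set to 0. It was also 0 with the row with the highest mean kept, which leaves the Hox values unchanged. The median difference was 0.61 and became 1.52 with a pseudocount of 0.1 FPKM and 0.91 over the 28 genes that passed the filter of 1 FPKM. The number at least 2-fold higher was 12 and became 4 with a filter of 5 FPKM, which 8 Hox genes passed, and 24 with no filter and a pseudocount of 0.1 FPKM; the other settings gave 10 to 18. Over all genes these 2 settings gave 2.85% and 12.6% higher, and moved the share of higher among all counted genes from 35.8% to 18.4% and 53.9%. Setting the median ratio of genes at 5 FPKM or more to 0, a shift of -0.10 (log2), gave 44.4% and 13 Hox genes, with Hoxc4 (1.05) newly past the limit and Hoxd1 at 0.08 in place of a difference just below 0. Of the 8 Hox genes that passed the filter of 5 FPKM, only Hoxa7, Hoxd1 and Hoxd13 reached it in control. The higher side of the others is fixed by that filter.

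For control against PN5, 7 higher became 2 of the 3 Hox genes that passed the filter of 5 FPKM, against 25.9% of all genes. Of these 3, only Hoxa7 reached 5 FPKM in PN5 (8.14), so that the higher side of the others is fixed by the filter. With no filter and a pseudocount of 0.1 FPKM it became 23 of 39, against 27.3% of all genes. The 0 lower became 1 with that pseudocount alone and 2 with both changes. For DRB-released against PN5, 23 higher became 7 of the 8 Hox genes that passed the filter of 5 FPKM, against 20.9% of all genes. Here too Hoxa7 alone reached 5 FPKM in PN5, and it was not among the 7. The higher side of these 7 is therefore fixed by the filter. With no filter and a pseudocount of 0.1 FPKM it became 37 of 39, against 29.7% of all genes. Members at 1 FPKM or more changed with a threshold of 0.5 FPKM from 2 to 4 in MII, from 2 to 8 in early 2-cell, from 9 to 19 in control and from 28 to 33 in DRB-released embryos; with each library rescaled to a sum of 1000000 they became 5 in MII, 8 in PN5, 13 in early 2-cell, 23 in control and 35 in DRB-released embryos. The mean ICM sum of 5.70 FPKM became 12.4 when rescaled and lay between 5.20 and 6.21 with either replicate left out. No paired analysis was possible because each total RNA group has 1 library. Without replicates or depth, counting error and the spread between pools of embryos are unknown for every level of the total RNA libraries.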
